A study of Mus musculus with 9 samples.

Results

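A set of 10 genes of the FoxO and insulin signalling pathway was followed by symbol through both deposited tables of normalized counts, and all 10 of 10 were found among the 35013 symbols that each table lists. They are the forkhead factors Foxo1, Foxo3, Foxo4 and Foxo6, the FoxO target Pdk4, the receptors Insr and Igf1r, the adaptors Irs1 and Irs2, and the kinase Akt2. All 10 reached the mean of 10 normalized counts over the 6 libraries of a table that was required for testing. RNA-Seq was done on epithelial cells sorted from the small intestine of NFKO mice aged 4 to 6 weeks, whose genotype is given as Neurog3Cre-FoxO1 f/f; Rosa26tdtomato. Cre from the Neurog3 driver deletes FoxO1 in endocrine progenitors of the gut and turns on Tomato in them and in their descendants. Tomato+ cells were split by the surface protein CD24 into CD24negTomato+ and CD24+Tomato+ cells, and Tomatoneg cells are the sorted cells without Tomato. Tomatoneg libraries also held lymphocyte transcripts, as given below. Each population had 3 replicates, which makes 9 libraries. The 3 populations share the floxed FoxO1 alleles and the Cre transgene, and no Tomato+ library with intact FoxO1 was analysed here, so the FoxO1 deletion and the identity of the sorted cells cannot be told apart. The labels call the replicates biological but do not name the mice or sorts behind each number.

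Insulin and the IGFs bind the receptors INSR and IGF1R, which phosphorylate IRS adaptors. The adaptors recruit PI3K, which activates AKT, and AKT phosphorylates FoxO proteins so that they leave the nucleus. When the signal is weak, FoxO factors stay in the nucleus and switch on genes for fasting metabolism, cell cycle arrest and stress resistance, Pdk4 among them, and they raise expression of Irs2 and Insr in several tissues. Transcript levels do not show how much FoxO protein is nuclear or how much AKT is active.

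The libraries differed in more than the sort. In replicate 1 the summed level of 7 enterocyte genes was 605462 normalized counts in Tomatoneg, against 156777 and 160972 in Tomatoneg replicates 2 and 3, and CD24negTomato+ and CD24+Tomato+ replicate 1 were likewise the highest of their populations. Tomatoneg replicate 1 also had the fewest genes above 0, 13025 against 15644 and 16008. The results below that rest on replicate 1 are therefore given with and without it. The sort labels held for enteroendocrine markers: all 8 of 8 were higher in every Tomato+ library than in every Tomatoneg library in both comparisons, and their sum was 81359 to 147979 in CD24negTomato+ and 2669 to 6594 in Tomatoneg. All 8 of 8 goblet markers were also higher in both Tomato+ populations. Paneth (6 of 6) and tuft (7 of 7) markers were higher without overlap in CD24+Tomato+ cells, whereas 3 of 6 and 6 of 7 were lower without overlap in CD24negTomato+ cells. No marker was at 0 in every library of a group. Depth was estimated at 27723742 to 39233343 reads in Tomato+ and 19157916 to 24368400 in Tomatoneg libraries, and a value equal to 3 reads, 2.10 to 4.29 normalized counts, was taken as the limit of detection.

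Foxo1 is the gene that the genotype deletes. It lies on mouse chromosome 3 (GRCm38, chr3:52268336-52353221, plus strand, ENSMUSG00000044167.6) and has 1 annotated transcript of 8665 bases in 3 exons. In CD24+Tomato+ replicates 1, 2 and 3 its normalized count was 319, 193 and 201. In the Tomatoneg libraries of the same table it was 748, 529 and 444. Every CD24+Tomato+ library was below every Tomatoneg library, and the Foxo1 level left was 42.7%, 36.4% and 45.3% of that in the same-numbered Tomatoneg library. In CD24negTomato+ the counts were 467, 274 and 371, against 695, 518 and 424 in Tomatoneg. These groups overlapped, since CD24negTomato+ replicate 1 was above Tomatoneg replicate 3, although each CD24negTomato+ library was below its own number at 67.1%, 52.9% and 87.6%. Foxo1 had a log2 fold change of -1.27 ± 0.36 (SE, n = 3 and 3) for CD24+Tomato+, with a limma adjusted P of 0.0579, and -0.56 ± 0.33 for CD24negTomato+, with a limma adjusted P of 0.427. With the replicate number as a block, which compares same-numbered libraries, the limma adjusted P for CD24+Tomato+ was 0.0219 and passed the threshold of 0.05, and that for CD24negTomato+ was 0.207. Without replicate 1 in both groups, CD24+Tomato+ cells had -1.29 with a limma adjusted P of 0.0492 even without the block. With the block, Foxo1 did not pass in CD24+Tomato+ when the same-numbered pair 2 or pair 3 was left out. Without the block, it did not pass when any single library was left out. Foxo1 in CD24+Tomato+ passed in 8 of 22 settings.

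The level of Foxo1 transcript is not a full check of the deletion. Exons 1, 2 and 3 make up 12.5%, 15.6% and 71.9% of the transcript, and the sources used here do not say which exon is floxed. Reads from a recombined transcript that keeps the other exons would be counted as Foxo1, so the deposited gene-level value cannot separate recombined from intact transcript. In bulk samples, fewer cells of a type and less RNA per cell cannot be told apart. The lower Foxo1 in CD24+Tomato+ came with lower summed enterocyte markers, 24457 to 99188 against 159523 to 647902 in Tomatoneg, with 5 of 7 genes lower without overlap. The summed lymphocyte markers were 436 to 537 against 3084 to 11421, with 8 of 9 lower. In CD24negTomato+ the enterocyte sum was 224652 to 555905 against 156777 to 605462 in Tomatoneg, and 0 of 7 genes were lower without overlap. The lymphocyte sum there was 590 to 1185 against 2877 to 11190, with 8 of 9 lower. The part of these cells in the Foxo1 result was not tested.

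**Figure D1:**
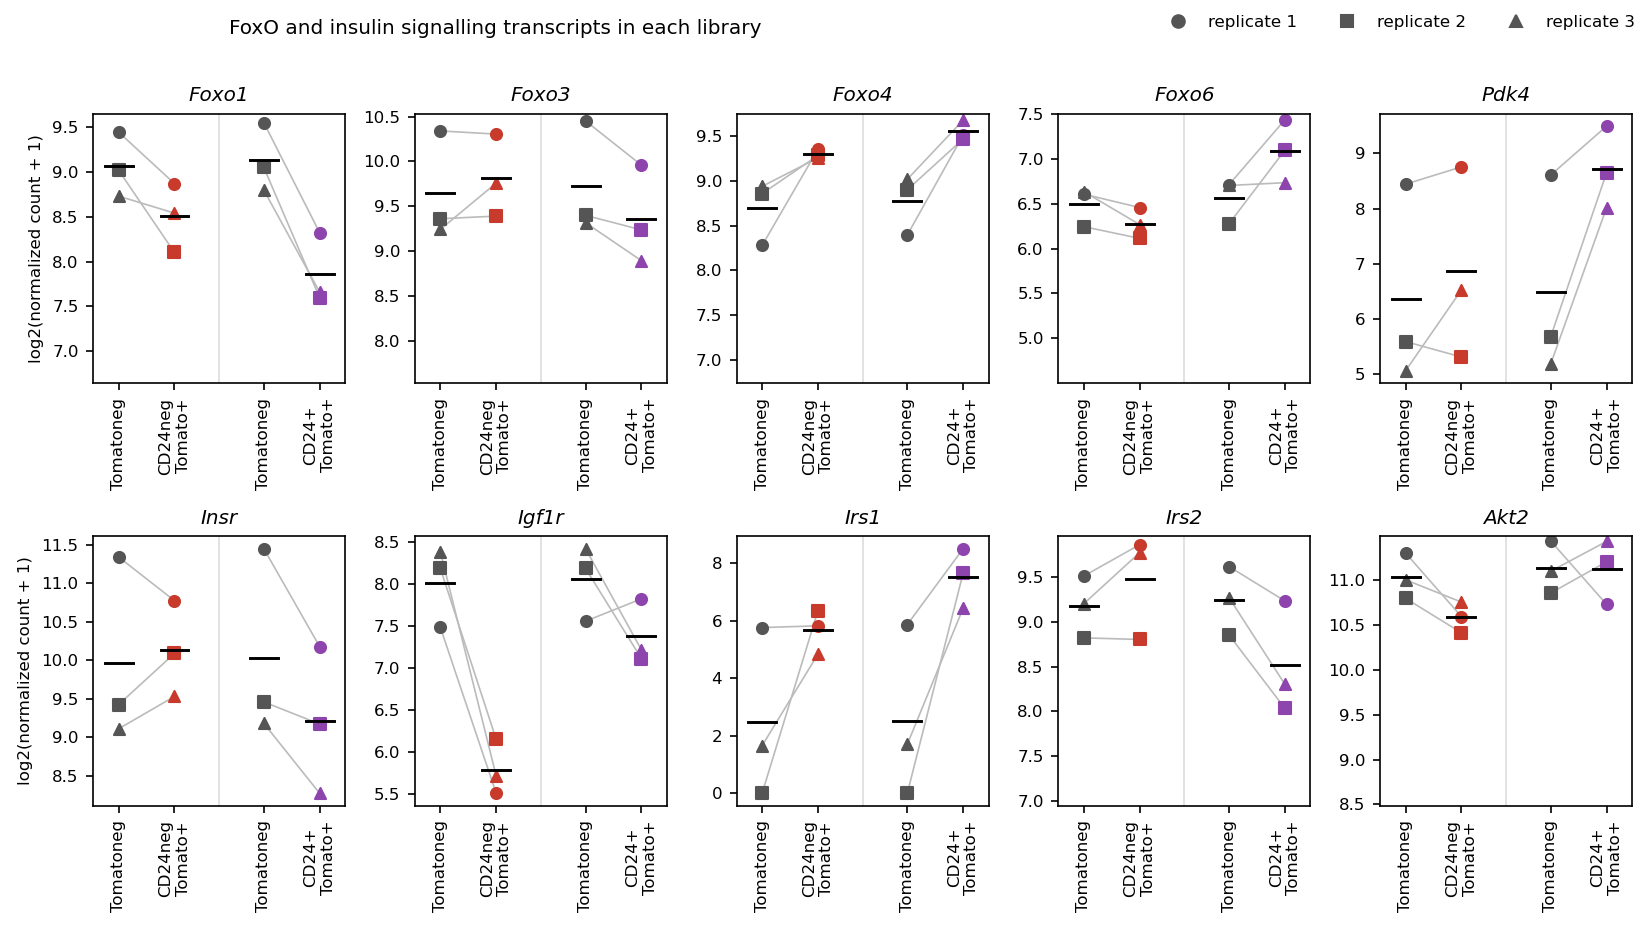
Level of each of the 10 transcripts as log2(normalized count + 1), with a separate vertical axis for each gene that does not start at 0. Each panel shows the CD24negTomato+ comparison on the left and the CD24+Tomato+ comparison on the right, points are libraries, grey lines join libraries with the same replicate number, and black bars are means of 3 libraries. Foxo1 was lower than in the same-numbered Tomatoneg library in all 6 pairs, Foxo4 was higher in all 6, and Irs1 was at 0 in Tomatoneg replicate 2.

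Foxo3, a factor that shares many targets with Foxo1, differed less. Its normalized count was 994, 602 and 475 in CD24+Tomato+ against 1400, 674 and 637 in Tomatoneg. It was 1264, 670 and 865 in CD24negTomato+ against 1295, 657 and 605. The groups overlapped in both comparisons, and replicate 1 was the highest library of each group. Foxo3 had a log2 fold change of -0.36 ± 0.41 in CD24+Tomato+ (limma adjusted P = 0.62, 95% confidence interval -1.32 to 0.60) and 0.17 ± 0.38 in CD24negTomato+ (limma adjusted P = 0.85, interval -0.72 to 1.06). These intervals leave room for a change of Foxo3 in either direction. The sign of the smaller one changed when libraries were scaled to equal totals, which gave -0.03.

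Foxo4, an X-linked member of the family that AKT also phosphorylates, had higher counts than Tomatoneg in every Tomato+ library of both kinds. CD24negTomato+ libraries had 652, 622 and 610 normalized counts, and their Tomatoneg libraries had 309, 463 and 489. CD24+Tomato+ libraries had 727, 706 and 817, against 336, 476 and 517. No library overlapped in either comparison. Foxo4 was also the member with the least spread among Tomato+ libraries, with an SD of 21.8 on a mean of 628 in CD24negTomato+. Its log2 fold changes were 0.61 ± 0.28 (limma adjusted P = 0.328, 0.177 with the replicate block) and 0.78 ± 0.27 (limma adjusted P = 0.107, 0.0613 with the block), so neither passed the threshold. Both comparisons use the same Tomatoneg libraries.

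Foxo6, a family member known mainly from brain and from lipid metabolism in liver, was measured at low counts. It had 86.9, 68.3 and 76.1 normalized counts in CD24negTomato+ against 96.5, 74.9 and 98.5 in Tomatoneg, and the groups overlapped. In CD24+Tomato+ it had 172, 136 and 106 against 104, 76.6 and 103, without overlap. The log2 fold change was -0.22 ± 0.44 in the first (limma adjusted P = 0.837) and 0.52 ± 0.46 in the second (limma adjusted P = 0.507), which quantile normalization turned to -0.17.

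Because Foxo1 and Foxo3 shared the high replicate 1, their ratio within each library was also examined. A ratio within a library cancels its size factor, but not the gene-specific factors that the 2 tables also carry. The mean log2 ratio of Foxo1 to Foxo3 was -1.31 ± 0.11 (SD, n = 3) in CD24negTomato+ and -0.58 ± 0.28 in Tomatoneg. In CD24+Tomato+ it was -1.50 ± 0.23 against -0.59 ± 0.28. The difference was -0.73 in CD24negTomato+ and -0.91 in CD24+Tomato+, no library overlapped in either, and all 3 same-numbered pairs were lower in each. The exact two-sided permutation P was 0.1 for both, which is the smallest that 3 against 3 libraries can give, and 0.267 after adjustment over 8 ratio tests. In the comparison where Foxo1 alone overlapped, the ratio did not. Foxo3 also enters that separation. In CD24negTomato+ replicates 1, 2 and 3 it was at 97.6%, 102% and 143% of the same-numbered Tomatoneg library, and Foxo1 was at 67.1%, 52.9% and 87.6%. The lower ratio of replicate 3 thus came from higher Foxo3 as well as lower Foxo1. Leaving out single libraries kept the difference between -0.61 and -0.89 in CD24negTomato+ and between -0.79 and -1.07 in CD24+Tomato+.

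**Figure D2:**
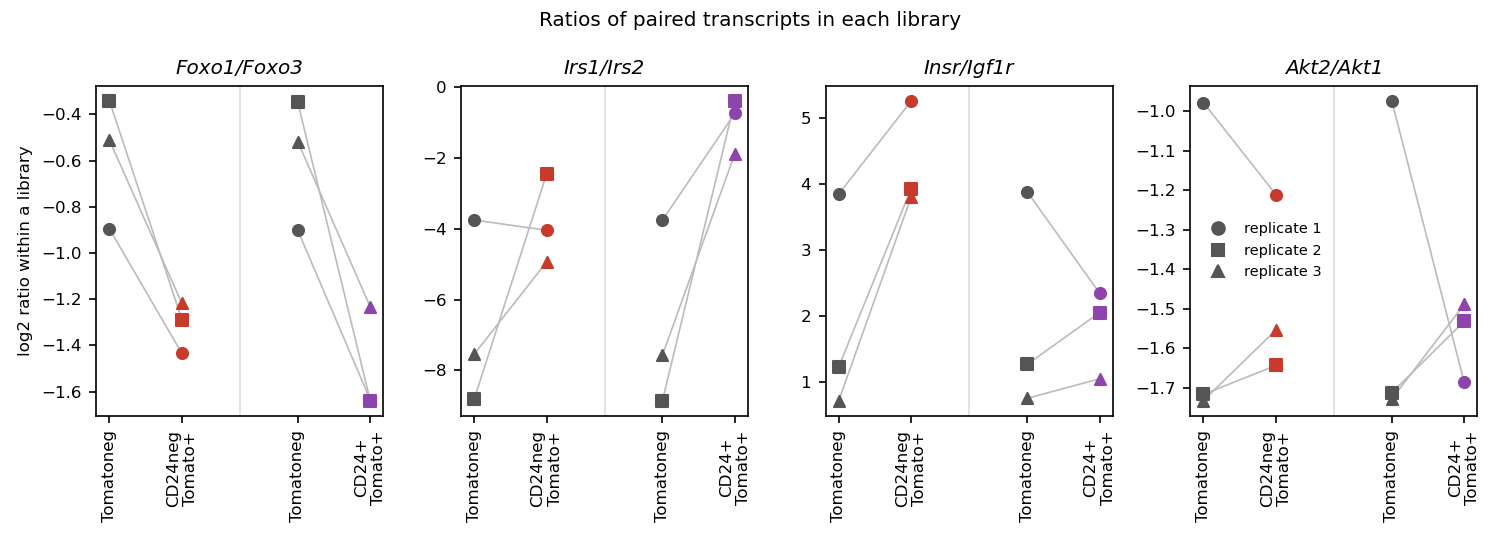
Log2 ratio of 2 transcripts within each library, computed on normalized count + 1, for Foxo1 to Foxo3, Irs1 to Irs2, Insr to Igf1r and Akt2 to Akt1. Marker shapes are replicates and grey lines join the same replicate number; each panel has its own vertical axis. The Foxo1 to Foxo3 ratio was lower in every Tomato+ library than in every Tomatoneg library, whereas Akt2 to Akt1 overlapped in both comparisons.

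Pdk4 encodes a kinase that shuts down the pyruvate dehydrogenase complex and so spares glucose in fasting. FoxO1 is a known activator of Pdk4. Its normalized count in CD24+Tomato+ was 721, 401 and 259, and in Tomatoneg it was 390, 50.5 and 35.5. Each CD24+Tomato+ library was above its own number, but Tomatoneg replicate 1 was above CD24+Tomato+ replicate 3, so the groups overlapped. This gave 2.23 ± 0.91 on the log2 scale, with a limma adjusted P of 0.161 without and 0.0275 with the replicate block. Without Tomatoneg replicate 1 it was 3.28 with a limma adjusted P of 0.00848, and without replicate 1 in both groups it was 2.90 with 0.0224, so without the block the gene passed only when that library was left out or array weights were used. With the block, Pdk4 did not pass in CD24+Tomato+ when pair 2 or pair 3 was left out. It passed there in 7 of 22 settings. In CD24negTomato+ the counts were 432, 38.8 and 91.3 against 347, 47.3 and 32.5, or 0.50 ± 1.13 on the log2 scale (limma adjusted P = 0.851), which turned to -0.45 without CD24negTomato+ replicate 1. The count of Tomatoneg replicate 1 was 8.70 times the mean of replicates 2 and 3, and that of CD24negTomato+ replicate 1 was 6.64 times. The Pdk4 value of a Tomatoneg library differed between the tables by a factor of 1.07 to 1.12, more than that of most genes, so the levels in the 2 Tomato+ populations were not set against each other.

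Insr, the insulin receptor, followed the same replicate pattern. Its normalized count was 1156, 575 and 308 in CD24+Tomato+ against 2793, 702 and 579 in Tomatoneg. It was 1749, 1087 and 738 in CD24negTomato+ against 2590.4, 686 and 551. All groups overlapped, and Tomatoneg replicate 1 stood at 4.19 times the mean of replicates 2 and 3. In CD24+Tomato+ the log2 fold change was -0.82 ± 0.69 (limma adjusted P = 0.492, 0.0594 with the replicate block). It shrank to -0.11 without Tomatoneg replicate 1, an omission that keeps the high CD24+Tomato+ replicate 1. All 3 same-numbered pairs were lower, at 41.4%, 81.9% and 53.2%. With the block and a pair left out, the difference was -1.09 to -0.60. In CD24negTomato+ the log2 fold change was 0.17 ± 0.60 (limma adjusted P = 0.907) and turned to -0.03 with equal library totals. It was 0.86 without Tomatoneg replicate 1, and -0.07 to 0.54 with the block and a pair left out.

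Igf1r, the receptor for IGF-1, was lower in CD24negTomato+ cells by more than any other member. Its normalized count there was 44.6, 70.2 and 51.7, against 178, 291 and 334 in Tomatoneg. No library overlapped, and the CD24negTomato+ libraries had 25%, 24.1% and 15.5% of the level in the same-numbered Tomatoneg library. Igf1r differed by -2.23 ± 0.45 on the log2 scale, with a limma adjusted P of 0.063 without and 0.0347 with the replicate block. The difference was -2.49 without Tomatoneg replicate 1, where the limma adjusted P was 0.0229. Igf1r did not pass without replicate 1 in both groups, where 0 genes passed without the block. With the block it did not pass when pair 2 or pair 3 was left out. It passed in 8 of 22 settings, with a difference of -2.49 to -2.01 over all of them. In CD24+Tomato+ the counts were 226, 138 and 148 against 188, 291 and 343, and the groups overlapped because replicate 1 ran the other way. That gave -0.67 ± 0.41 on the log2 scale (limma adjusted P = 0.344). Without replicate 1 in both groups the difference was -1.14, and Igf1r passed there under no alternative. All 5 of 5 stem markers were lower in CD24negTomato+ without overlap, with a sum of 2353 to 4283 against 9824 to 27556 in Tomatoneg, while in CD24+Tomato+ their sum overlapped at 12636 to 19667 against 10620 to 28308. Lymphocyte markers, 8 of 9 lower, summed to 590 to 1185 in CD24negTomato+ against 2877 to 11190 in Tomatoneg. The part of these cells in the Igf1r result was not tested.

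Irs1 and Irs2, the adaptors that carry the receptor signal to PI3K, had different patterns. Their promoters were searched for FoxO motifs. Of the 10 members, 7 had a promoter entry in RefSeq (GRCm38.p6), a window from 250 bases before to 50 after the start of transcription. The motif CAAAACAA, searched on both strands (TTGTTTTG on the other), was in the promoters of Irs1 and Irs2 and in those of no other member, against 825 of 32851 promoters in all (2.51%). The canonical FoxO motif GTAAACA, with TGTTTAC on the other strand, was in none of the members' promoters and in 3.65% of all. These strings do not overlap each other, and a match is a description, not evidence of binding. The windows are shown because they hold the match in the adaptors, beside that of Igfbp1, a textbook insulin-responsive gene, and of Txnip, a FoxO target that holds the canonical motif. The motif is in capitals, each sequence reads 5′ to 3′ on the strand of its gene and ends before the RefSeq start.
Irs1, chr1:82291440-82291499, minus strand: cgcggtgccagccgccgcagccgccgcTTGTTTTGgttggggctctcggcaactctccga
Irs2, chr8:11008933-11008994, minus strand: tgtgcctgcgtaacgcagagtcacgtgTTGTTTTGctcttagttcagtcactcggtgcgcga
Igfbp1, chr11:7197652-7197713, plus strand: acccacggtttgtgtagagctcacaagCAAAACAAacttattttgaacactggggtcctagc
Txnip, chr3:96557809-96557869, plus strand: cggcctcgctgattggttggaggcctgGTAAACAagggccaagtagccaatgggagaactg
The match begins 33 bases before the start in Irs1, 38 in Irs2 and 108 in Igfbp1.

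The normalized count of Irs1 was 362, 200 and 85.6 in CD24+Tomato+ and 57.3, 0 and 2.26 in Tomatoneg. Every CD24+Tomato+ library was above every Tomatoneg library, of which replicates 2 and 3 were below the limit of detection. In CD24negTomato+ the count was 55.6, 80.6 and 27.6 against 53.3, 0 and 2.15, and Tomatoneg replicate 1 overlapped. Irs1 differed by 5.01 ± 1.48 on the log2 scale in CD24+Tomato+, with a limma adjusted P of 0.0687 without and 0.0222 with the replicate block, and 3.20 ± 1.48 in CD24negTomato+, with 0.324 and 0.186. Its size depends on the value added before taking logs: it was 6.27 in CD24+Tomato+ with 0.1 added and 3.28 with 10. Without Tomatoneg replicate 1 it was 6.68 in CD24+Tomato+ (limma adjusted P = 0.00496) and 4.84 in CD24negTomato+ (limma adjusted P = 0.0278). That omission leaves only Tomatoneg replicates 2 and 3, both below the limit of detection. Without replicate 1 in both groups and without the block, Irs1 passed in CD24+Tomato+ but not in CD24negTomato+, where 0 genes passed. With the block, Irs1 did not pass in CD24+Tomato+ when pair 2 was left out. With all libraries, array weights also gave a call in both comparisons, and the replicate block or a pseudocount of 10 did so in CD24+Tomato+. In CD24+Tomato+ cells the higher Irs1 and Pdk4 came with higher summed markers of Paneth cells, 461569 to 1890477 against 37533 to 148432, of tuft cells, 12759 to 15457 against 1575 to 2127, and of enteroendocrine cells, 149930 to 226164 against 2803 to 6747. Goblet markers were higher there too, with a sum of 995578 to 1256946 against 148114 to 217560. Pancreatic acinar markers were also higher there, with a sum of 341 to 3483 against 53.4 to 207 and 3 of 7 genes without overlap. The part of these cells in either result was not tested.

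Irs2 did not follow Irs1. Its normalized count was 600.5, 261 and 315 in CD24+Tomato+ against 784, 461 and 616 in Tomatoneg. In CD24negTomato+ it was 928, 446 and 873 against 728, 451 and 588. The groups overlapped in both, and the log2 fold changes were -0.72 ± 0.39 (limma adjusted P = 0.284, 0.0935 with the replicate block) and 0.30 ± 0.36 (limma adjusted P = 0.706). The mean log2 ratio of Irs1 to Irs2 within a library was -0.99 ± 0.78 in CD24+Tomato+ and -6.72 ± 2.65 in Tomatoneg, with -0.73, -0.38 and -1.87 in CD24+Tomato+ replicates 1, 2 and 3. The difference was 5.73, all 3 pairs were higher and no library overlapped (exact permutation P = 0.1, adjusted P = 0.267). In CD24negTomato+ the difference was 2.90 with an exact permutation P of 0.3, and 1 of 3 pairs was lower. Irs1 and Irs2 each have 1 annotated transcript, and their factor between the tables was that of the library.

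Akt2, the AKT isoform most tied to insulin action on glucose, was lower without overlap in CD24negTomato+ libraries, though it passed neither test. Its normalized count was 1546, 1364 and 1729 in CD24negTomato+ against 2526, 1780 and 2054 in Tomatoneg, without overlap. In CD24+Tomato+ it was 1699, 2360.4 and 2765 against 2772, 1855 and 2195. There replicate 1 was lower than its own Tomatoneg library and replicates 2 and 3 were higher. The log2 fold changes were -0.45 ± 0.23 (limma adjusted P = 0.365, 0.14 with the replicate block) and -0.01 ± 0.26 (limma adjusted P = 0.988, 95% confidence interval -0.62 to 0.60). The ratio of Akt2 to Akt1 within a library differed by 0.01 in CD24negTomato+ and by -0.10 in CD24+Tomato+ on the log2 scale, with an exact permutation P of 1 for each.

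**Figure D3:**
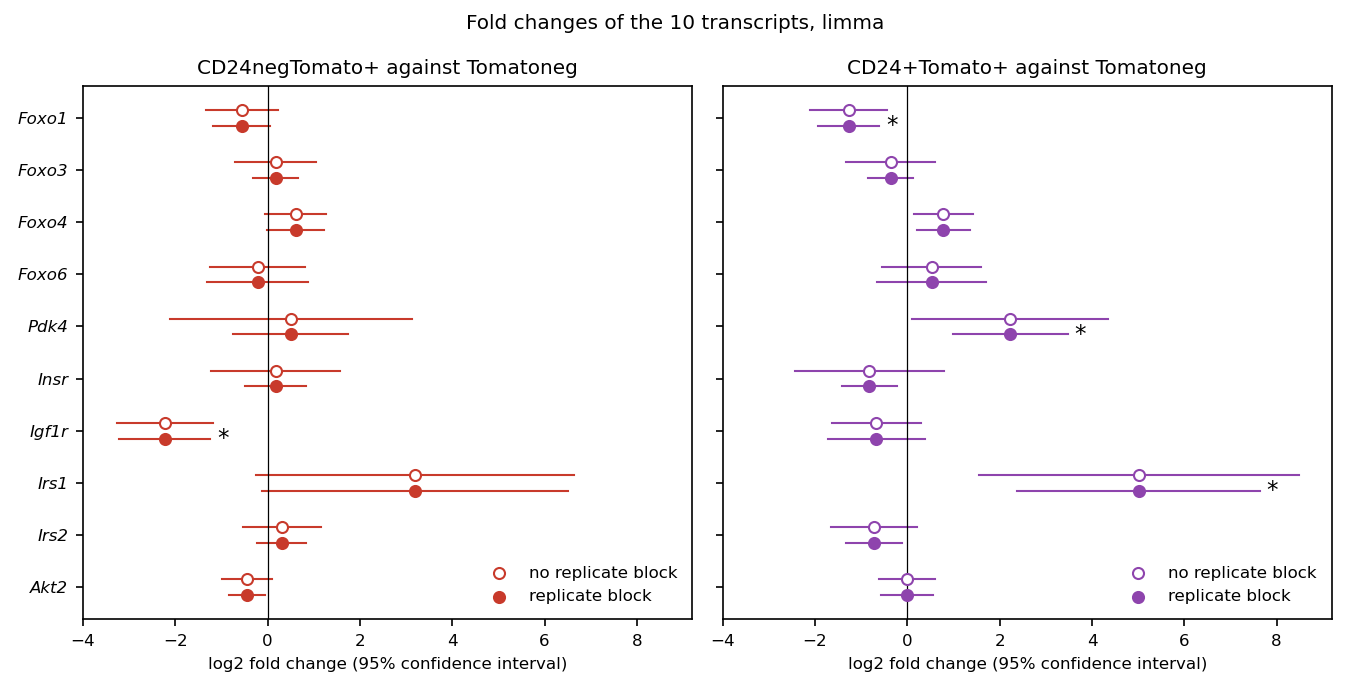
Log2 fold change of each transcript with its 95% confidence interval from limma, against Tomatoneg, for CD24negTomato+ (left) and CD24+Tomato+ (right). Open points are fits without and filled points with the replicate number as a block, and an asterisk marks a Benjamini-Hochberg adjusted P under 0.05 over all genes tested. The asterisks stand at Igf1r on the left and at Foxo1, Pdk4 and Irs1 on the right, all with the block.

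Counted over the 10 members, 0 of 10 passed an adjusted P of 0.05 by limma without the block in either comparison. An unadjusted limma P under 0.05 was found for 1 of 10 in CD24negTomato+, against 2292 of 13420 genes. In CD24+Tomato+ it was found for 4 of 10, against 3863 of 13874 genes. Over all genes tested, 1.32% passed in CD24negTomato+ (177 of 13420, 0.999% higher and 0.32% lower) and 12.9% in CD24+Tomato+ (1791 of 13874, 8.02% higher and 4.89% lower). With the block, 1 of 10 passed in CD24negTomato+ (Igf1r, lower), against 7.3% of all genes (4.34% higher and 2.96% lower), and 3 of 10 in CD24+Tomato+ (Irs1 and Pdk4 higher, Foxo1 lower), against 20.8% (10.8% higher and 9.95% lower). Groups did not overlap for 3 of 10 members in CD24negTomato+ (Foxo4 higher, Igf1r and Akt2 lower), against 25.3% of all genes (14.7% higher and 10.6% lower). They did not overlap for 4 of 10 in CD24+Tomato+ (Foxo4, Foxo6 and Irs1 higher, Foxo1 lower), against 36% (21.6% higher and 14.4% lower). With 10 genes, these counts are not read as different from the background. The median log2 fold change over the members was 0.17 and -0.18 against 0.08 and 0.16 over all genes.

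Replicate 1 was the highest library of both groups for 5 of 10 members in the CD24negTomato+ table (Foxo1, Foxo3, Insr, Irs2 and Pdk4), against 18.4% of all genes. In the CD24+Tomato+ table this held for 7 of 10, with Foxo6 and Irs1 added, against 24.8%. Both tables hold the same Tomatoneg libraries, so the 2 counts are not independent. Igf1r ran the other way in the CD24negTomato+ table, where replicate 1 was the lowest of both groups, as it was for 24% of all genes, and 0 of 10 members had this pattern in the CD24+Tomato+ table, against 22.7%. The ratio of replicate 1 to the mean of replicates 2 and 3 was 1.45 to 1.62 for Foxo1 in the 3 populations. For Insr it was 1.92 in CD24negTomato+ and 2.62 in CD24+Tomato+. Enterocyte markers moved with these values, as given above, and their part was not tested.

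**Figure D4:**
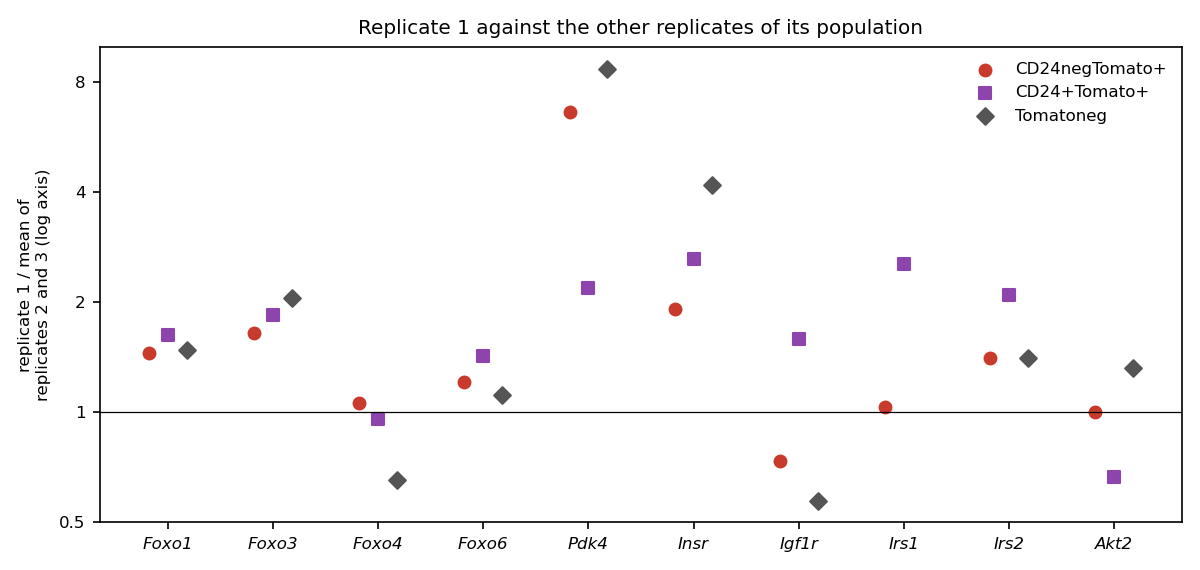
Normalized count of replicate 1 divided by the mean of replicates 2 and 3 of the same population, on a log axis, with the Tomatoneg values taken from the CD24negTomato+ table. The line marks a ratio of 1. Irs1 in Tomatoneg is left out because replicates 2 and 3 were below the limit of detection; Pdk4 in Tomatoneg is the highest point shown, at 8.70.

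Levels of different genes were compared per kilobase of the longest coding transcript. In Tomatoneg libraries of the CD24negTomato+ table, Akt2 stood highest at 467 ± 83.1 (SD, n = 3) normalized counts per kilobase. It was followed by Insr at 136 ± 122, Foxo4 at 133 ± 30.7, Foxo3 at 124 ± 56.2 and Irs2 at 93.2 ± 21.9, which overlapped one another. Foxo1 had 63.0 ± 15.9, Pdk4 40.9 ± 51.0, Foxo6 34.4 ± 5.01, Igf1r 23.5 ± 7.04 and Irs1 2.02 ± 3.30. By their ranges over the 3 libraries, Akt2 at the top and Irs1 at the bottom were apart from their neighbours and the other genes overlapped with theirs. In CD24negTomato+ the order began with Akt2 at 340 ± 40.2 and Foxo4 at 199 ± 6.90, each apart from the next gene, and Igf1r was the lowest at 4.87 ± 1.16 beside Irs1 at 5.97 ± 2.90. In CD24+Tomato+, Akt2 and Foxo4 again led without overlap, at 501 ± 118 and 237 ± 18.5, followed by Pdk4 at 132 ± 67.9. Foxo1 there was the lowest of the FoxO genes, at 27.4 ± 8.16, below Foxo6 at 52.7 ± 12.8 in every library, whereas in Tomatoneg it was above Foxo6 in every library. Foxo4 was thus the most abundant FoxO transcript per kilobase in both Tomato+ populations.

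The genes whose level across libraries was most like that of Foxo1 were Foxk1, Map4, Dnah2, Slc20a1 and Dot1l. Likeness was the lower of the Pearson r over the 6 libraries of each table, among 13238 genes tested in both, and was 0.961, 0.952, 0.945, 0.943 and 0.937. The tables share 3 libraries, and replicate number and population both enter these values. Foxk1, another forkhead factor, had 1264, 916 and 1097 normalized counts in CD24negTomato+ and 1515, 1249 and 1238 in Tomatoneg. By the same measure Foxo3 had 0.557 and Foxo4 had -0.939.

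Beyond the members, 119 genes of the pathway were taken from 7 lists of ligands, receptors, kinases, inhibitors, FoxO regulators, FoxO targets and pyruvate dehydrogenase genes. In CD24negTomato+, 0 of 111 tested passed by limma without the block, against 1.32% of all genes, and 5 with it (4.5%, against 7.3% of all genes). Of these, Ins1 and Ins2, which encode insulin, and Igf2r and the cell cycle inhibitor Cdkn1a were higher, and Prmt1 was lower. Ins2 had 269, 614 and 5471 normalized counts in CD24negTomato+ against 0, 90.6 and 70.6 in Tomatoneg, and Ins1 had 62.9, 234 and 2871 against 0, 43.3 and 24.4. Their fitted log2 fold changes were 5.69 ± 0.98 and 5.08 ± 0.93 with the replicate block (limma adjusted P = 0.0308 and 0.0359), and both genes were highest in CD24negTomato+ replicate 3. The size of both fold changes depends on the value added before taking logs, since Tomatoneg replicate 1 was at 0. The 8 islet beta markers, which hold Ins1 and Ins2, summed to 4944 to 13499 against 1845 to 8787, with 3 of 8 higher without overlap. Slc2a2, also on that list, made up most of both upper ends, with 12561 and 8249 normalized counts in replicate 1 of each group. The sum therefore does not track Ins1 and Ins2. The 7 acinar markers summed to 102, 22.3 and 402 in CD24negTomato+ replicates 1, 2 and 3, against 50.3 to 200.1 in Tomatoneg. Like Ins1 and Ins2, they were highest in CD24negTomato+ replicate 3. In CD24+Tomato+ the acinar sum did not overlap with Tomatoneg, as given above. It was 489, 341 and 3483 in replicates 1, 2 and 3, where Ins2 had 8.64, 135 and 358 normalized counts. The part of pancreatic RNA was not tested. These 5 genes were named after their values were seen.

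In CD24+Tomato+, 8 of 113 tested genes passed without the block (7.1%, against 12.9% of all genes), 4 higher and 4 lower, and 22 passed with it (19.5%, against 20.8% of all genes). None of the 113 passed without CD24+Tomato+ replicate 2 or without replicate 3, when limma without the block was used. Among ligands and binding proteins 1 of 7 passed: Igfbp3, the main carrier of IGF in blood, had 178, 199 and 206 normalized counts against 2.88, 17.7 and 8.95 (log2 fold change 4.44 ± 0.75, limma adjusted P = 0.0126). Among receptors and adaptors 1 of 11 passed: Irs4, an adaptor best known from hypothalamus, had 177, 106 and 104 against 0, 0 and 6.76 (limma adjusted P = 0.0139). Its fitted log2 fold change of 5.99 ± 1.04 depends on the value added before taking logs, since replicates 1 and 2 of Tomatoneg were at 0. Irs4 and Igfbp3, with Tomatoneg means of 2.25 and 9.84, reached the filter through their CD24+Tomato+ libraries, so their calls are not independent of that filter, and Irs4 was not tested in the other comparison. None of 24 kinases, 19 inhibitors of the pathway and 20 FoxO regulators passed by limma without the block.

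Of 24 FoxO target genes tested in CD24+Tomato+, 5 passed (20.8%, against 12.9% of all genes), 2 higher and 3 lower (against 8.02% and 4.89%), and 8 passed with the block (33.3%, against 20.8%). The list had a median log2 fold change of -0.16 against 0.16 over all genes. G6pc, the last step of glucose release in liver and gut, had 139, 45.5 and 37.7 normalized counts against 683, 645 and 392, or -3.14 ± 0.58 on the log2 scale (limma adjusted P = 0.0165). Sesn1, a stress-induced inhibitor of mTORC1, had 902, 481 and 440.1 against 2148, 1717 and 1071 (-1.46 ± 0.38, limma adjusted P = 0.0457). The mitochondrial superoxide dismutase Sod2 also fell, by 0.70 on the log2 scale (limma adjusted P = 0.0422). Klf2, a transcription factor of quiescent cells, had 396, 904 and 876 against 44.9, 135 and 153 (2.78 ± 0.58, limma adjusted P = 0.0238), and Gabarapl1, an autophagy gene, had 516, 669 and 609 against 195, 273 and 229 (1.36 ± 0.30, limma adjusted P = 0.026). G6pc and Sesn1 fell with the enterocyte markers given above, whose part was not tested. The targets thus did not move in 1 direction. In CD24negTomato+ 0 of 25 targets passed without and 1 with the block (against 1.32% and 7.3% of all genes). Txnip, whose promoter is shown above, had 9474, 11518 and 11559 normalized counts against 4865, 8514 and 9486 (log2 fold change 0.56 ± 0.30, limma adjusted P = 0.375). Dlat, the acetyltransferase subunit of the complex that Pdk4 inhibits, was the 1 of 8 pyruvate dehydrogenase genes that passed in CD24+Tomato+, with 985, 1027 and 1313 against 1713, 2474 and 2190.3 (-0.93 ± 0.23, limma adjusted P = 0.0403).

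**Figure D5:**
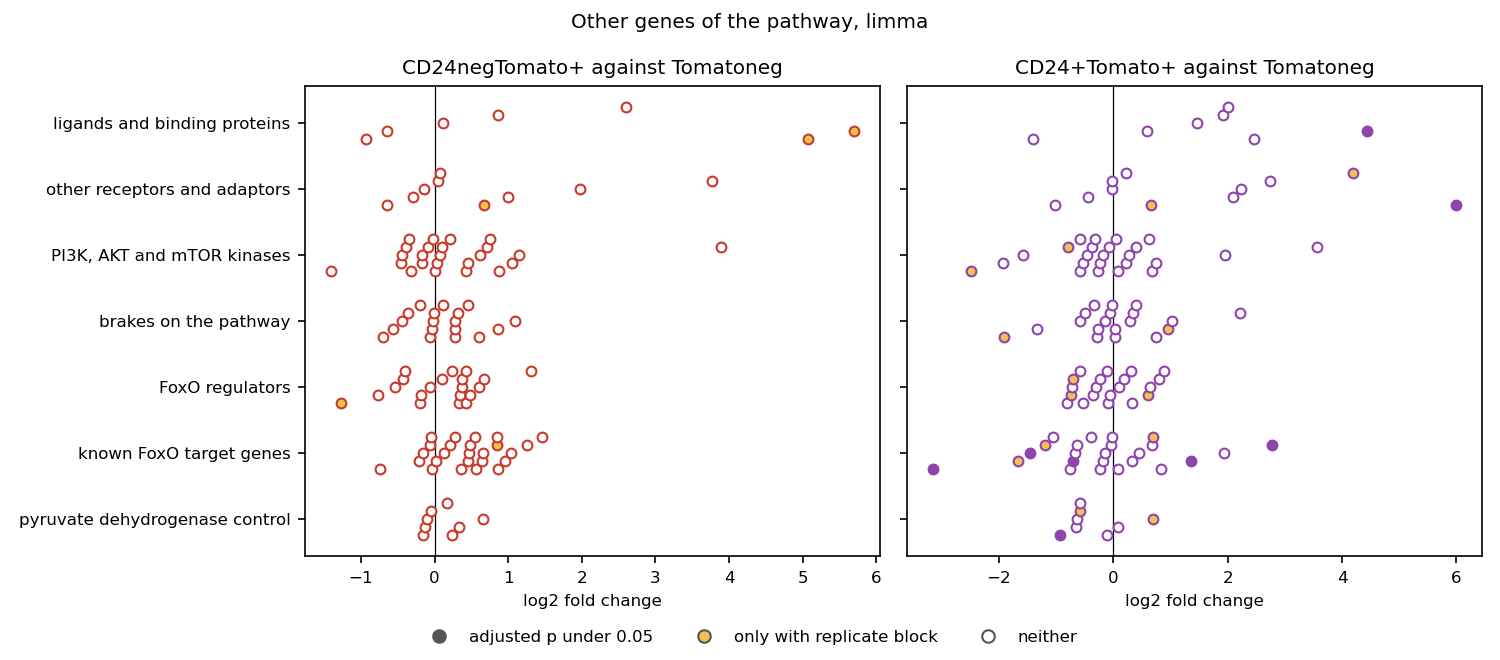
Log2 fold change of each tested gene of the 7 pathway lists against Tomatoneg, without the replicate block, for CD24negTomato+ (left) and CD24+Tomato+ (right); each point is a gene and its vertical offset within a list carries no meaning. Filled points passed an adjusted P of 0.05 by limma without the block, yellow points only with it, and open points in neither. No point is filled on the left and 8 are on the right, of which 5 are FoxO targets.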

How the data were processed

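The authors sequenced poly-A RNA of 9 libraries. The submitters' processing notes name bcl2fastq 2.19, kallisto 0.44.0, sleuth, DESeq2 and GRCm38. The deposited values are a signal: estimated gene counts normalized by the authors within each of 2 tables of 6 libraries, with Tomatoneg in both. The value of a shared Tomatoneg library differed between tables by a factor that was not the same for all genes (47.7% to 48.4% of genes were within 1% of the most common factor), so tests stayed within a table. Whole reads could not be recovered; 1 read was taken as the most common low value. That depth and limit cover counting error only.

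Values were tested as log2(normalized count + 1) with limma 3.58.1 in R 4.3.3 (eBayes with trend), two-sided, Benjamini-Hochberg adjusted over all genes with a mean of at least 10, against 0.05. Fold changes on this scale understate the change of low genes. Same-numbered libraries deviated together (r = 0.291 to 0.342 and 0.180 to 0.375), so the replicate number was also fitted as a block. Pairing comes from the numbers in the labels. Ratios were tested by exact permutation. Positions are from GENCODE M21. The members and lists were chosen with earlier results of these data known. Beside the members, named genes are those passing in each list, at most 4 by fold change, and the 5 genes most like Foxo1. Sod2, Txnip, Igfbp1 and the genes named for a call with the block or for opposite signs (Ins1, Ins2, Igf2r, Cdkn1a, Prmt1, Sgk1, Phlpp2, Ppargc1a) fall outside that rule and were chosen after their values were seen. The code was tested on simulated data. Alternatives were other pseudocounts, filters, scalings, array weights, the block, and single libraries or pairs left out.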

Additional observations from a re-analysis of the deposited data

Results flagged for a closer look

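Foxo6 had opposite signs in the 2 comparisons. Its log2 fold change was -0.22 in CD24negTomato+, where all 3 same-numbered pairs were lower, and 0.52 in CD24+Tomato+, where all 3 were higher. In the latter, replicate 3 stood at only 102% of its Tomatoneg library, and quantile normalization turned 0.52 to -0.17. The same kind of split was seen in 3 genes of the pathway lists, where every same-numbered pair of one comparison moved against every pair of the other. Prmt1, an arginine methyltransferase, had -1.27 in CD24negTomato+ and 0.61 in CD24+Tomato+. Phlpp2, a phosphatase that acts on AKT, had 0.32 and -1.91. Ppargc1a, a coactivator of mitochondrial genes, had 1.04 and -1.67. The difference was not tested for any of them, since the tables were scaled separately, and both comparisons use the same Tomatoneg libraries.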

How the results depend on the processing

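The limits are few libraries, a Tomatoneg replicate 1 that stands apart, and a depth at which Irs1 (replicates 2 and 3) and Irs4 (replicates 1 and 2) were below detection in Tomatoneg. Equal library totals moved the median of all genes by -0.20 in CD24negTomato+, and quantile normalization and median log2 ratio scaling moved it by -0.21 and -0.13 in CD24+Tomato+.

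Over all genes in CD24negTomato+, the 177 calls became 112 with a pseudocount of 0.1, 415 with 10, 494 with quantile normalization, 867 with array weights, 979 with the replicate block, and 1298 and 1639 with the block and equal totals or quantile normalization. With libraries left out there were 0 to 916 calls, 0 without replicate 1 in both groups (at an unadjusted P under 0.05, 1445 genes higher, 1258 lower) and 916 without Tomatoneg replicate 1. With the block and a pair left out there were 206, 722 and 1945. In CD24+Tomato+ the 1791 calls became 3278 with array weights, 2885 with the block and 3656 with the block and quantile normalization, 137 (without CD24+Tomato+ replicate 2) to 2393 with libraries left out, and 1868 to 3290 with the block and a pair left out. The share of calls that were higher was 75.7% in CD24negTomato+, 62% with equal totals, 61.5% with quantile normalization, 60.3% with array weights and 59.4% with the block. It was 62.1% in CD24+Tomato+, 52.1% with the block and 48.9% with quantile normalization.

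Members called in CD24negTomato+ went from 0 to 1 with a pseudocount of 10, with quantile normalization, with the block, and with the block and either scaling, to 2 with array weights, and were 0 to 2 with libraries left out. In CD24+Tomato+ they went from 0 to 1 with a pseudocount of 10, quantile normalization or median scaling, to 3 with array weights, the block, or the block and equal totals, to 5 with the block and quantile normalization (Insr and Irs2 added), and were 0 to 3 with libraries left out. Pathway calls in CD24negTomato+ were 2 with array weights, 5 with the block, 5 and 7 with the block and equal totals or quantile normalization, 0 to 2 with libraries left out and 2 to 8 with the block and a pair left out. In CD24+Tomato+ the 8 became 5 with equal totals, 22 with array weights, 22 with the block, 14 and 32 with the block and equal totals or quantile normalization, 0 to 12 with libraries left out, 0 of them without CD24+Tomato+ replicate 2 or 3, and 12, 15 and 23 with the block and a pair left out.

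Foxo1 in CD24+Tomato+ passed with quantile normalization (-1.55), median scaling (-1.40), array weights (-1.33), the block (-1.27), and the block with equal totals (-1.27) or quantile normalization (-1.55), and without replicate 1 in both groups (-1.29 with or without the block). It was -1.50 to -1.06 with libraries left out and -1.34 to -1.18 with the block and a pair left out. It did not pass with any single library left out, or with the block and pair 2 or pair 3 left out. In CD24negTomato+ it passed under no alternative.

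Signs turned as follows. In CD24negTomato+, equal totals with or without the block gave -0.029 for Foxo3 and -0.027 for Insr. Libraries left out gave -0.073 to 0.52 for Foxo3 (-0.0029 to 0.27 with the block), -0.25 to 0.86 for Insr (-0.073 to 0.54 with the block) and -0.45 to 1.54 for Pdk4. In CD24+Tomato+, quantile normalization with or without the block gave -0.17 for Foxo6 and 0.16 for Akt2, array weights gave 0.21 for Akt2, and libraries left out gave -0.66 to 0.0053 for Foxo3 and -0.16 to 0.34 for Akt2 (-0.19 to 0.34 with the block). The ratio of Akt2 to Akt1 was -0.12 to 0.26 (CD24negTomato+) and -0.23 to 0.15 (CD24+Tomato+), and Insr to Igf1r -0.76 to 0.81 (CD24+Tomato+), with libraries left out. The cause was not tested. With signs flipped within same-numbered pairs (replicate block), the Foxo1 to Foxo3 differences of -0.73 and -0.91 had an exact P of 0.25, the smallest that 3 pairs allow. Of the values for single genes other than Foxo1 under the alternatives, 442 kept their direction and side of the threshold, 29 passed newly, 30 no longer passed and 23 changed sign.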

Other observations

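Genes of the pathway that passed only with the replicate block in CD24+Tomato+ included Sgk1, an AKT-related kinase, with 411, 94.9 and 100.4 normalized counts against 3593, 555 and 356 in Tomatoneg (log2 fold change -2.49 ± 0.34, limma adjusted P = 0.00381). Phlpp2 had 691, 232 and 239 against 3003, 916 and 744 (-1.91 ± 0.22, limma adjusted P = 0.00198). Igf2r, which clears IGF-2, was higher in CD24+Tomato+ (0.66 ± 0.15, limma adjusted P = 0.022) and in CD24negTomato+ (0.67 ± 0.13, limma adjusted P = 0.0424) with the block. Cdkn1a was higher in CD24+Tomato+ (0.70 ± 0.17, limma adjusted P = 0.0304) and in CD24negTomato+ (0.84 ± 0.13, limma adjusted P = 0.0257) with the block. These genes were named after their values were seen, and the comparisons share the Tomatoneg libraries.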
